A study of Mus musculus with 6 samples.

Results

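The receptors for IL-2, IL-4, IL-7, IL-9, IL-15 and IL-21 share 1 signalling subunit, the common gamma chain. Transcripts of 8 genes of this family were followed in cultured mouse ILC2s (group 2 innate lymphoid cells), out of 25865 genes in the table: Il2rg, which encodes the common gamma chain, Il2ra, Il2rb, Il4ra, Il9r, Il21r and Il15ra, and Il13ra1, which pairs with the IL-4 receptor chain in place of the gamma chain. They were chosen by name as members of the family or partner chains, and Il7r was left out by the same rule. All 8 had a row in the table.

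The cells were ILC2s that had been sorted from large intestine (C57BL/6 mice). All samples grew for 5 days in medium with 2 gamma chain ligands, IL-2 and IL-7, and with the alarmins IL-33 and IL-25, each at 10 ng/mL. In 3 samples (toyocamycin) the culture was then exposed for 16 h to toyocamycin, a nucleoside close to adenosine that is used as an inhibitor of the endoribonuclease IRE1, and 3 samples (Control) received vehicle. The sources used here give neither the dose nor the vehicle nor the number of mice. They also do not say whether replicates came from different cultures, and the p-values therefore reflect sample-to-sample spread that could be technical.

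A gamma chain receptor is built from a private chain that binds the cytokine and from the shared chain. The kinase JAK1 binds the private signalling chain and JAK3 the gamma chain, and after ligand binding both phosphorylate STAT proteins, mainly STAT5 for IL-2, IL-7, IL-9 and IL-15, STAT6 for IL-4 and STAT3 for IL-21. IL-2Rα (Il2ra, CD25) raises the affinity of the IL-2 receptor and does not signal itself, while IL-2Rβ (Il2rb) is a signalling chain of both the IL-2 and the IL-15 receptor. In ILC2s, IL-2 and IL-7 support survival and growth, IL-9 acts as an autocrine survival factor, and IL-4 signals through IL-4Rα.

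Values are normalised read counts, that is, reads per gene divided by 1 factor per sample, and each library held 22.3 M to 36.7 M reads assigned to genes. No pair of replicates agreed within counting noise, and all 6 samples were kept. Log2 changes, their standard errors (SE) and adjusted p-values are from a limma model over 16223 genes, and a gene is called at an adjusted p under 0.05. The 13 ILC2 markers had reads in every sample, with a summed level of 448959 to 461830 in Control and 412582 to 449257 with toyocamycin. That sum, led by Il1rl1, hides changes of single markers. Of the 13, 6 were called higher and 7 lower, where 65.9% of all genes tested were called. Rora rose 13.1-fold and Il13 fell 6.95-fold. Not every marker was abundant, with Arg1 at 502.5 ± 33.2 in Control and 98.61 ± 18.8 with toyocamycin (SD, n = 3). Across the 6 samples, markers of T cells summed to 509.8 to 658.3, of ILC3s to 516.4 to 704.8, of B or plasma cells to 187.2 to 469.6, of epithelial cells to 192.2 to 248.3, and of macrophages or dendritic cells to 442.9 to 928.9. The lists of NK cells or ILC1s (7259 to 10890, nearly all Gzma) and of fibroblasts or endothelial cells (774.9 to 1609, mostly Pecam1) were each led by a gene that is not exclusive to those cells.

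Toyocamycin-treated ILC2s had lower normalised transcript levels for most of the gamma chain receptor family. These levels are relative to the other genes of a sample and give no absolute amount of mRNA. In the deposited scaling, Il9r fell most, to 16.2% of its Control level, followed by Il2ra (33.6%) and Il15ra (39.3%). The shared chain Il2rg (62.9%) and Il2rb (77.3%) fell less. The order below Il2ra depended on the scaling. With quantile normalization the log2 changes were −1.15 for Il2rg, −0.87 for Il15ra and −0.85 for Il2rb. Il4ra was higher, at 118% of Control, in the scaling the authors deposited, and was lower when samples were set to equal totals or quantile normalised. Il21r and Il13ra1 did not pass the test. Thus 5 of the 8 genes were called lower and 1 higher, where 33.1% of all genes tested were called lower and 32.8% higher. Since 65.9% of all genes were called in 1 direction or the other, 6 calls among 8 genes is near the background. The median log2 change of the 8 genes was −0.54, beside −0.03 for all genes tested. In these bulk samples, fewer cells with a transcript and less of it per cell cannot be told apart.

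**Figure D1:**
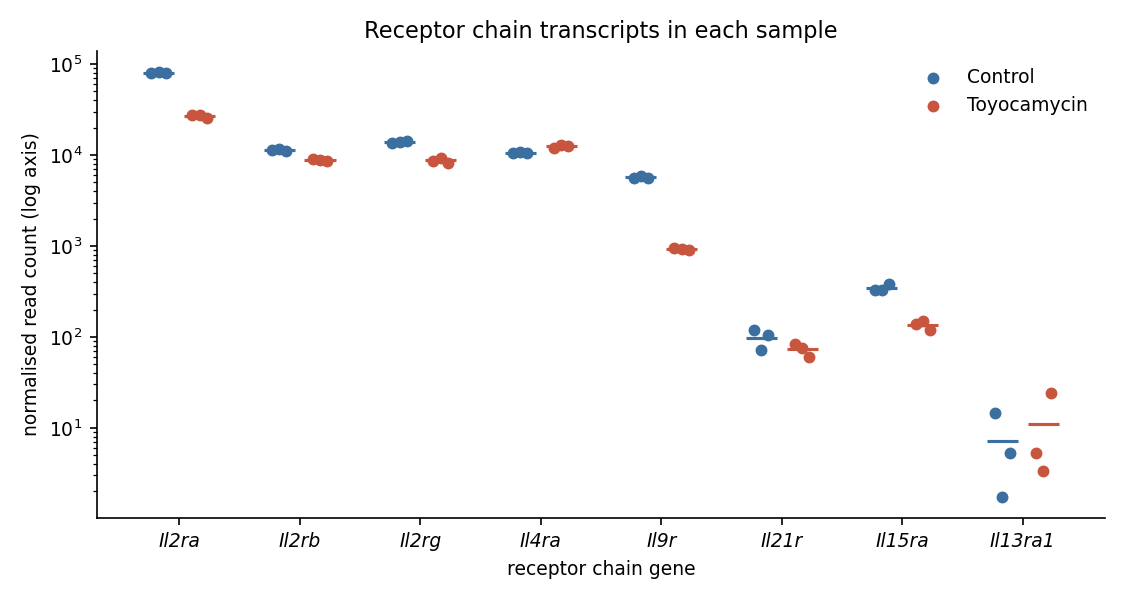
Normalised read count (log axis) of each of the 8 receptor chain genes in the 3 Control (blue) and 3 toyocamycin (red) samples; points are samples and lines are group means. Il9r, Il2ra and Il15ra show the widest gaps between groups, Il21r and Il13ra1 overlap, and Il2ra lies above all other chains in both groups.

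Il2rg (chromosome X, 101264378 to 101268255, GRCm38) had 13470, 13867 and 14225 normalised reads in Control and 8654, 9303 and 8196 with toyocamycin. The groups did not overlap, as in 69.1% of all genes tested and in 6 of these 8. The log2 change was −0.67 (SE 0.053, limma adjusted p = 3.11e-10). Another annotated gene on the same strand, Gm20489, shares 728 exonic bases with Il2rg but has no row in the table. How reads in that stretch were assigned is therefore uncertain.

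Of the IL-2 receptor chains, Il2ra (chromosome 2, 11642807 to 11693193) was the most abundant member and fell by far the most. It had 79985, 81849 and 79452 normalised reads in Control and 27643, 27669 and 25836 with toyocamycin. The replicates of each group lay close together, with an SD of 1.56% of the mean in Control and 3.88% with toyocamycin. The level dropped 2.97-fold (log2 change −1.57, SE 0.052, limma adjusted p = 1.47e-16). Its Control read count, not corrected for gene length, exceeded that of 99.9% of the genes tested.

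Il2rb (chromosome 15, 78479256 to 78495271) had 11300, 11619 and 11103 normalised reads in Control and 8974, 8806 and 8512 with toyocamycin. Every toyocamycin sample was below every Control sample, but the gap was small, a 1.29-fold drop (log2 change −0.37, SE 0.048, limma adjusted p = 6.55e-07). IL-2Rβ and IL-15Rα are also chains of NK cells and ILC1s. Of 8 markers of these cells, 5 (Ncr1, Eomes, Tbx21, Klre1 and Klra8) were at or under 3 reads in all 6 libraries, and Klra8 had none. Klrb1c had 8 reads in Control replicate 2 and none elsewhere. The other markers are the granule genes Prf1, which fell 5.25-fold from 193.6 ± 35.5 to 36.88 ± 6.29 (SD, n = 3; limma adjusted p = 2.28e-08), and Gzma, which was higher (7294 ± 237 and 10173 ± 683). The part of such cells in the Il2rb and Il15ra values was not tested.

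Il15ra, whose product binds IL-15 and presents it to IL-2Rβ and the gamma chain, lies 12.1 kb from Il2ra with no protein-coding gene between them (chromosome 2, 11705290 to 11734317). It was far less abundant, at 331.6, 329.1 and 383.5 normalised reads in Control and 140, 149.9 and 120.2 with toyocamycin. The groups were well apart, and the level was 2.55-fold lower with toyocamycin (log2 change −1.34, SE 0.15, limma adjusted p = 5.36e-08).

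Il9r (chromosome 11, 32187541 to 32200279), the private chain for IL-9, had the most negative change of the family. It had 5570, 5834 and 5622 normalised reads in Control and 941.6, 932.4 and 892.4 with toyocamycin. The spread within each group, 2.46% and 2.84% of the mean, was small against the 6.15-fold drop (log2 change −2.62, SE 0.057, limma adjusted p = 6.34e-19). Of all genes tested, 3.45% were called lower by at least as much, and 12.5% by at least as much as Il2ra. Mast cells also carry IL-9 receptors. Of 8 mast cell markers, Fcer1a had no read, and the proteases Mcpt1, Cma1 and Tpsb2 stayed at or under 3 reads in every library. Mcpt2 had 8 reads in Control replicate 1 and Mcpt4 at most 4, in Control replicate 3. Cpa3 was called lower, from 6.804 ± 3.10 in Control to a mean below the level of 3 reads (limma adjusted p = 0.0438). Kit, which ILC2s also express, made up nearly all of the list's sum, 29292 to 30748 in Control and 43106 to 46748 with toyocamycin. The part of mast cells in the Il9r values was not tested.

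Of the chains of the IL-4 and IL-13 receptors, 1 was abundant and 1 barely detected. Il4ra (chromosome 7, 125552120 to 125579474), which binds IL-4 and pairs with the gamma chain or with IL-13Rα1, had 10640, 10820 and 10415 normalised reads in Control and 12074, 12964 and 12590 with toyocamycin. All toyocamycin samples were above all Control samples, by a modest margin (log2 change 0.24, SE 0.049, limma adjusted p = 0.00019). The direction depended on the scaling: the log2 change was −0.11 when samples were set to equal totals (limma adjusted p = 0.00933) and −0.23 after quantile normalization (limma adjusted p = 1.31e-05). Equal totals moved the median of all genes from −0.03 to −0.36. Relative to that median, Il4ra stood at 0.26 in the deposited scaling and at 0.24 with equal totals, but at −0.26 with quantile normalization. An antisense gene, Gm44876, shares 571 exonic bases with Il4ra but has no row in the table. Without a stated strand setting the reads of both cannot be told apart there.

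Il13ra1 (chromosome X, 36112110 to 36171259) was close to the limit of detection. It had 14.5, 1.755 and 5.266 normalised reads in Control and 5.282, 3.388 and 24.28 with toyocamycin, where 3 reads correspond to about 2.66 and 3.38. The highest values were those of Control replicate 1 and toyocamycin replicate 3, and the groups overlapped (log2 change 0.46, 95% interval −1.10 to 2.02, limma adjusted p = 0.615). Those libraries also had the highest summed levels of the 9 macrophage and dendritic cell markers, 870.7 and 928.9, against 488.8 and 569.6 in the other Control and 736.9 and 442.9 in the other toyocamycin libraries. Lyz2 made up most of that sum, at 359.9 to 810 in all samples. Csf1r also reached 52.21 in toyocamycin replicate 3, Cd14, C1qa and Itgax stayed below 25 in each sample and Adgre1, C1qb and Flt3 below 4, and Zbtb46 rose from 5.03 ± 0.563 to 39.6 ± 4.81 (limma adjusted p = 2.25e-05). The same libraries were highest within their groups for the 8 fibroblast and endothelial markers (1609 in Control replicate 1 and 1127 in toyocamycin replicate 3) and for the 8 epithelial markers (248.3 and 217.3). The part of these cell types in the Il13ra1 values was not tested. Il13ra2, the decoy receptor for IL-13, had no read in any library, which allows up to 3 reads in each.

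Il21r lies 24.0 kb from Il4ra on chromosome 7 (125603429 to 125633570), with no protein-coding gene between them. It had 117.8, 71.97 and 104.4 normalised reads in Control and 84.52, 76.22 and 59.5 with toyocamycin. The groups overlapped, since Control replicate 2 lay among the toyocamycin values. The log2 change was −0.40 with a 95% interval of −0.93 to 0.13 (limma adjusted p = 0.179), which includes both no change and a drop as large as that of Il2rg. With equal totals it was −0.74 (adjusted p = 0.0178), and with quantile normalization 0.14.

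The promoters of Il9r, the member that fell most, Il2ra, the most abundant, and Il4ra, the one called higher in the deposited scaling, are shown as the 250 bases before the RefSeq start site (GRCm38.p6), 5′ to 3′ on the gene's own strand. Windows of 7 of the 8 members were found, 8 windows in all because Il15ra has 2, and Il2rb had none in the table. The Il4ra window ends past the annotated gene start given above (125552120), so part of it lies within the annotated gene. The second Il15ra window (11705462 to 11705711) lies wholly within the annotated gene. Each of the 8 windows was searched on both strands for the STAT binding motif TTCNNNGAA and the same half-sites with 4 bases between them. The GATA motif AGATAA was searched likewise, with no overlap between matches. Capitals mark the matches.
Il9r, chr11:32200280-32200529, minus strand: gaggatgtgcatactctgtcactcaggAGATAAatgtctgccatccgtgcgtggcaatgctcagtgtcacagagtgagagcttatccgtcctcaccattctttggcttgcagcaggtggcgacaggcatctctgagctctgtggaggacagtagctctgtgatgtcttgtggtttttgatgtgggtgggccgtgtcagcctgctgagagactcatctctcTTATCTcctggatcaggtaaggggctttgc
Il2ra, chr2:11642542-11642791, plus strand: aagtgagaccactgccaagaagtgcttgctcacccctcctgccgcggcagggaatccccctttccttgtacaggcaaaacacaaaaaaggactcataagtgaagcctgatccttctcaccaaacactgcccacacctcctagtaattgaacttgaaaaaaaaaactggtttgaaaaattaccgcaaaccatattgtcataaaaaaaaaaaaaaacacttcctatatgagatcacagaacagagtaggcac
Il4ra, chr7:125552021-125552270, plus strand: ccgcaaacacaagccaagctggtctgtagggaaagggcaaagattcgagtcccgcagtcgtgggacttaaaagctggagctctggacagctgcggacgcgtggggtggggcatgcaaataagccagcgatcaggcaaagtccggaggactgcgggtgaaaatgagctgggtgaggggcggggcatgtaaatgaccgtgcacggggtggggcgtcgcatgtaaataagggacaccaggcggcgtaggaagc

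The Il9r window held the GATA motif at 2 places, starting 223 and 30 bases before the start site, the second on the opposite strand. Among all 32851 windows, 9.99% held it at least once, and no window of another member did. Neither STAT motif was found in the 8 windows, where 7.02% and 5.85% of all windows held them. The windows also differed in CpG content: Il4ra had 17 CpG pairs and Il13ra1 21, while Il2ra and Il2rg had 3 each, Il21r 4, Il9r 5 and the windows of Il15ra 2 and 12, against a median of 6 over all windows. These matches describe letters in these windows and no measured binding.

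Per kilobase of exon, Il2ra and Il2rg led the family in both groups. In Control, the normalised read count per kilobase was 14083 ± 220 (SD, n = 3) for Il2ra, 5804 ± 158 for Il2rg, 2645 ± 60.8 for Il2rb, 1770 ± 33.8 for Il4ra and 1147 ± 28.2 for Il9r. Il15ra, Il21r and Il13ra1 followed at 78.3 ± 6.91, 29.5 ± 7.09 and 1.93 ± 1.77. Each neighbouring pair in this order was separated by more than the ranges of the samples. With toyocamycin, Il2ra stood at 4736 ± 184 and Il2rg at 3652 ± 233, still apart. Il4ra (2090 ± 74.4) and Il2rb (2044 ± 54.6) could no longer be ordered, because their ranges overlapped, and Il9r followed at 186 ± 5.28, Il15ra at 30.7 ± 3.40, Il21r at 22.1 ± 3.83 and Il13ra1 at 2.96 ± 3.11. The summed level of all 8 chains per kilobase was 25560 ± 330 in Control and 12765 ± 467 with toyocamycin. Of that sum, Il2ra held 55.1% ± 0.38 in Control and 37.1% ± 0.57 with toyocamycin, Il2rg 22.7% ± 0.61 and 28.6% ± 0.82, and Il4ra 6.93% ± 0.098 and 16.4% ± 0.70. Exon lengths come from the GENCODE M21 annotation, which may differ from the one the authors counted on.

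Plain ratios of chains within a sample do not depend on the 1 factor by which each sample was scaled. Quantile normalization, which is not a single factor, would move them. The log2 ratios and their tests used values with 1 added, unlike the plain ratios. For low genes such as Il13ra1 the factor can therefore enter the log2 ratio. For 1 Il2rb read there were 7.08, 7.04 and 7.16 reads of Il2ra in Control and 3.08, 3.14 and 3.04 with toyocamycin. The log2 ratio was 2.83 ± 0.012 (SD, n = 3) in Control and 1.63 ± 0.025 with toyocamycin. All samples of a group thus lay within a narrow band, far from the other group. Against Il2rg, the log2 ratio of Il2ra differed by −0.90 (SE 0.042) and that of Il9r by −1.95 (SE 0.048), toyocamycin minus Control. Il2rb was higher against Il2rg by 0.30 (SE 0.056), with ratios of 0.839, 0.838 and 0.78 in Control and 1.04, 0.947 and 1.04 with toyocamycin. In these 4 ratios the groups did not overlap, which gives an exact two-sided permutation p of 0.10, the smallest that 3 against 3 samples allow (0.175 adjusted over the 7 ratios).

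The ratio of Il15ra to its neighbour Il2ra overlapped between groups (difference 0.23, SE 0.10, exact permutation p = 0.20, adjusted 0.28). The ratio of Il21r to Il2rg differed by 0.27 (SE 0.25, exact permutation p = 0.50, adjusted 0.583). The ratio of Il4ra to Il13ra1 ranged from 734 to 6165 in Control and from 518 to 3827 with toyocamycin, too wide to compare, since Il13ra1 had so few reads.

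**Figure D2:**
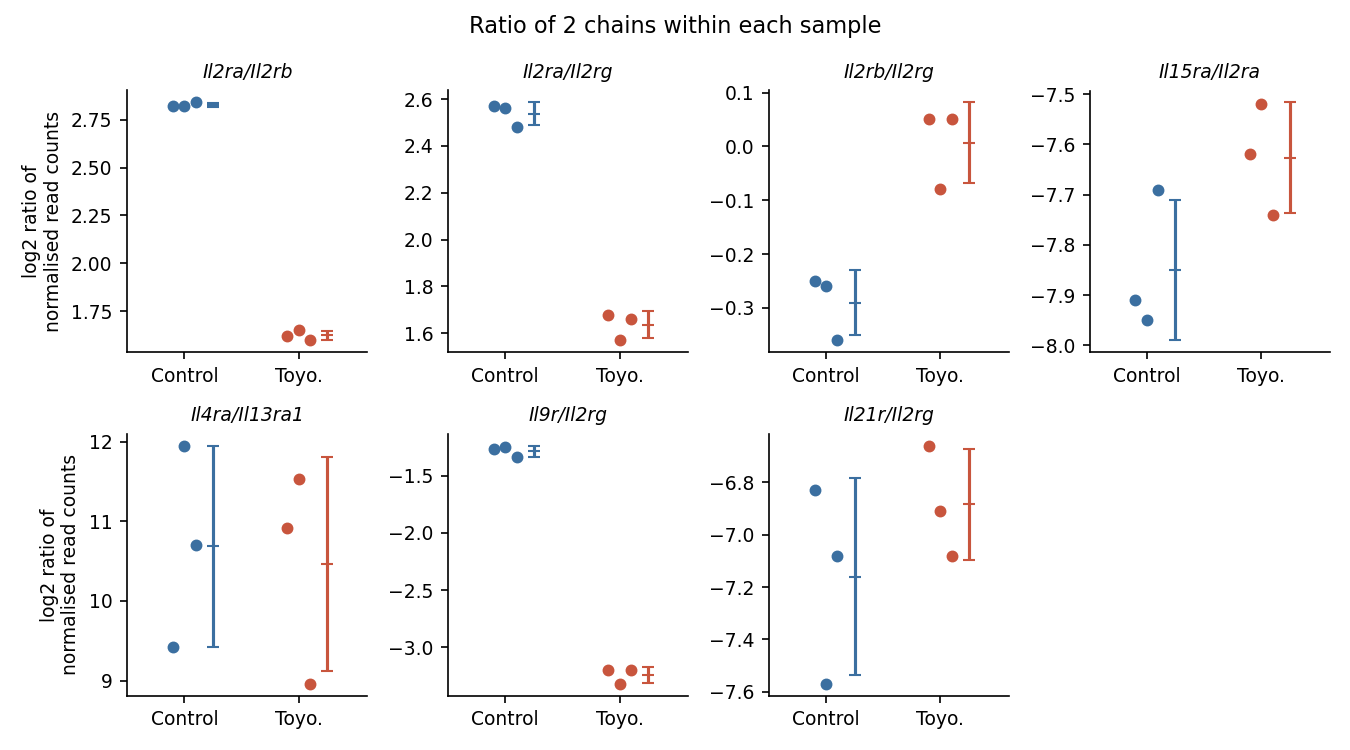
Log2 ratio of the normalised read counts (1 added to each) of 2 receptor chains within each sample, 1 panel per ratio. Points are samples, and bars beside them give mean ± SD (n = 3). The groups are apart for Il2ra/Il2rb, Il2ra/Il2rg, Il2rb/Il2rg and Il9r/Il2rg and overlap in the other 3 panels; the vertical axes differ.

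**Figure D3:**
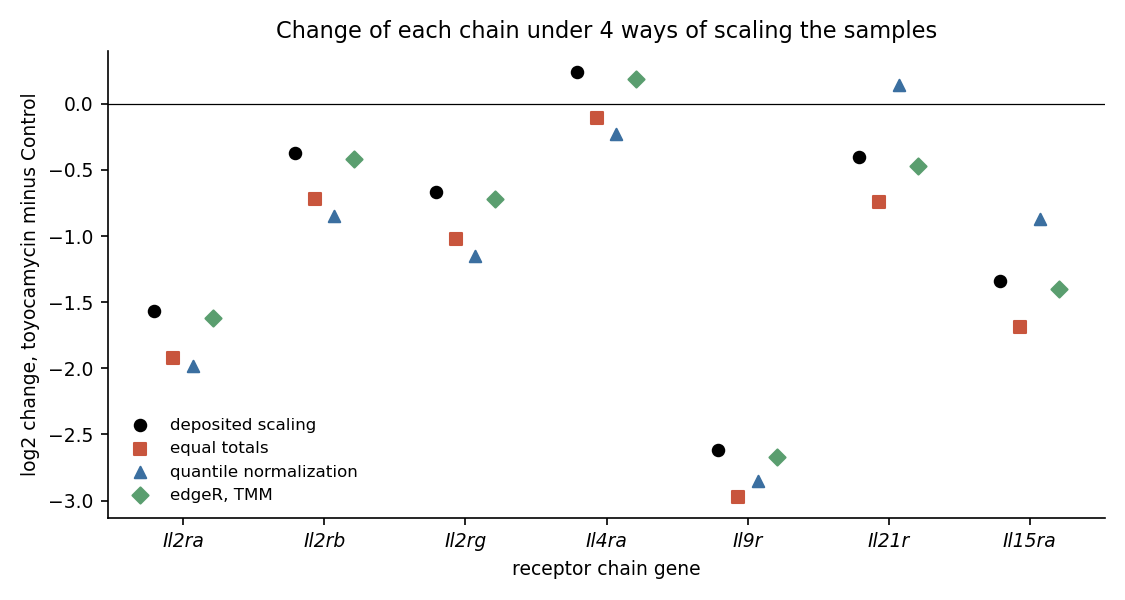
Log2 change, toyocamycin minus Control, of 7 receptor chains (Il13ra1 left out) in the deposited scaling and with equal totals, quantile normalization or edgeR with TMM factors. Il4ra lies above 0 in the deposited scaling (0.24) and with edgeR (0.19) and below 0 with equal totals (−0.11) and quantile normalization (−0.23), while Il9r, Il2ra, Il15ra, Il2rg and Il2rb lie below 0 throughout.

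Of the related chains outside the 8, the IL-7 receptor gene Il7r had 28539, 30561 and 29313 normalised reads in Control and 9833, 10111 and 9685 with toyocamycin. Its log2 change of −1.58 (SE 0.049, limma adjusted p = 6.29e-17) lay beside that of Il2ra. Crlf2, whose product pairs with IL-7Rα as the TSLP receptor, moved the opposite way, from 1940, 2005 and 2213 to 3650, 3706 and 3328 (log2 change 0.80, SE 0.063, limma adjusted p = 3.34e-10).

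The cells' own ligand transcripts were uneven. No read of Il2 or Il21 was found in any library, which allows up to 3 reads in each, so IL-2 was present in the medium without a detectable transcript. Il9 had 571.7, 537.1 and 681.1 normalised reads in Control and 699.9, 753.8 and 672.7 with toyocamycin. These groups overlapped, and the call (log2 change 0.25, limma adjusted p = 0.0262) was lost with equal totals (−0.09) and when Control replicate 1 (0.23) or 2 (0.18) or toyocamycin replicate 1 (0.26) or 2 (0.21) was left out. The transcript of its receptor, Il9r, fell in the same samples. Il4 had 617.9, 666.1 and 786.4 normalised reads in Control and 204.7, 326.9 and 235.6 with toyocamycin (log2 change −1.45, SE 0.14, limma adjusted p = 9.44e-09). Il13 fell too (log2 change −2.80). Il7, Il15 and Tslp were at most 10.93 in any sample. The call of Il7 as lower was lost with edgeR (adjusted p = 0.0649 with TMM factors) and without 1 of several samples. Of 8 ligand genes, 6 were tested, with 3 called lower, 1 higher and 2 not called. Among all genes tested, 33.1% were called lower and 32.8% higher.

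**Figure D4:**
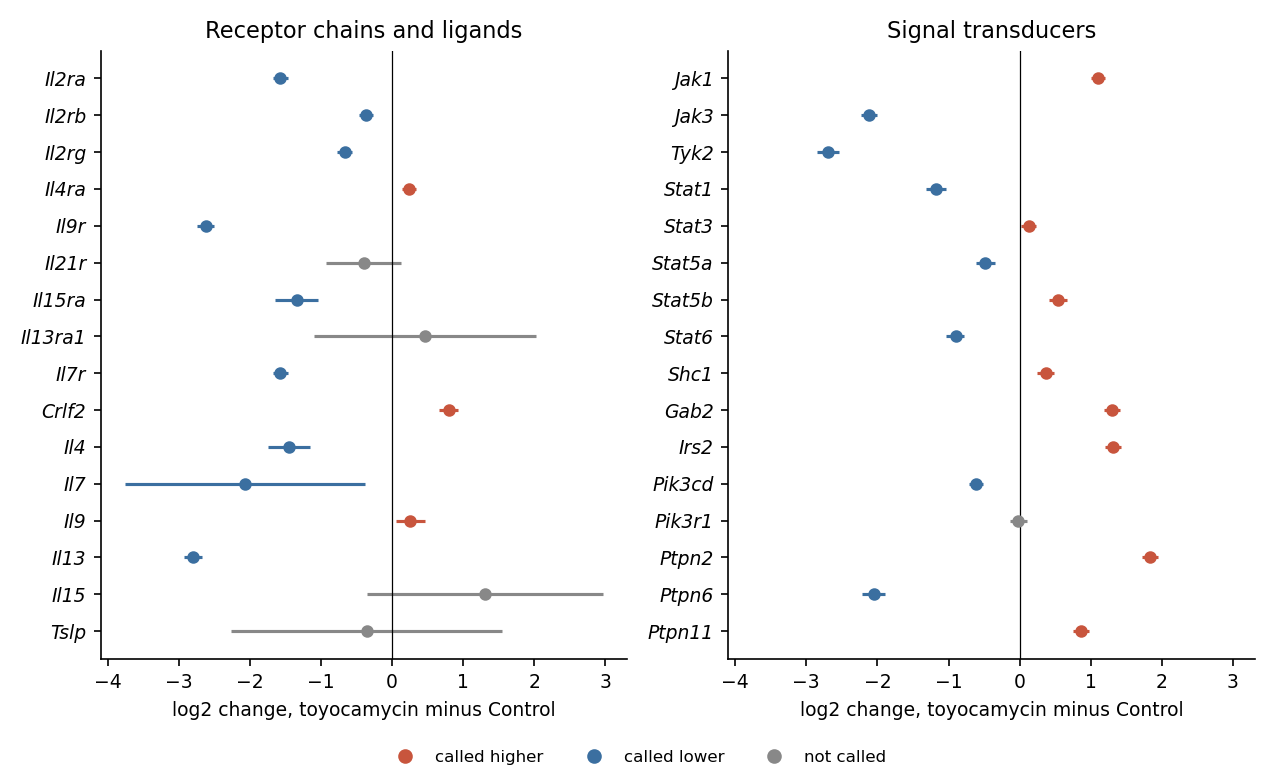
Log2 change, toyocamycin minus Control, with 95% intervals from limma for the tested receptor chains and ligands (left) and for 16 signal transducers (right); red and blue mark genes called higher and lower, grey those not called. Intervals are narrow for abundant genes such as Il2ra and Jak3 and wide for Il13ra1, Il7, Il15 and Tslp, which had few reads.

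Among the signal transducers, the kinases that bind these receptors moved apart. Jak3, the kinase of the gamma chain, had 13663, 14190 and 13277 normalised reads in Control and 3239, 3289 and 2938 with toyocamycin, a 4.34-fold drop (log2 change −2.12, SE 0.054, limma adjusted p = 4.56e-18). Jak1, the kinase of the private chains, rose 2.15-fold, from 15363 ± 271 to 32976 ± 1211 (SD, n = 3; limma adjusted p = 2.06e-14). Tyk2, a kinase that can serve the IL-13 receptor, fell 6.46-fold. Stat6 fell 1.87-fold, from 4130 ± 43.1 to 2213 ± 187, and Stat5a 1.40-fold, from 1703 ± 49.4 to 1215 ± 54.6. Stat5b was higher, at 5535 ± 322 against 3813 ± 176 (log2 change 0.54), a call that was lost with quantile normalization (0.03). Irs2, an adaptor of the IL-4 receptor, rose 2.49-fold, and Ptpn2, a phosphatase that acts on JAK1 and JAK3, rose 3.56-fold. Of 16 transducers, 8 were called higher, 7 lower and 1 was not called, with a median log2 change of 0.06. With quantile normalization 5 were higher and 9 lower. The shares over all genes tested were 32.8% higher and 33.1% lower.

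Genes known to respond to STAT5 were mixed as well. Osm fell 5.22-fold, from 14544 ± 715 to 2785 ± 143, and the feedback inhibitor Socs3 fell 3.88-fold. Socs2, another feedback inhibitor, rose 2.58-fold from 1680 ± 83.9 to 4337 ± 197, and Bcl2l1, which encodes the survival protein BCL-XL, rose 2.08-fold. Of 14 such genes, 9 were called lower and 5 higher (median log2 change −0.82), beside 33.1% lower and 32.8% higher over all genes tested. With equal totals 10 were lower and 3 higher, and with quantile normalization 11 were lower and 3 higher.

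Cytokine receptor genes outside the family also went both ways: of 32, 29 were tested, with 12 called lower, 11 higher and 6 not called. Their median log2 change was 0.16, and equal totals gave 15 lower and 7 higher. These counts are near the shares over all genes tested, 33.1% lower and 32.8% higher. Ifngr1, a chain of the interferon gamma receptor, rose 5.36-fold from 1681 ± 35.9 to 9008 ± 288. Il12rb2 was at 19.03 ± 5.04 against 4.983 ± 3.94, and its call as higher was lost without Control replicate 1 (adjusted p = 0.0547). Il12rb1, a chain of the IL-12 and IL-23 receptors, fell 3.57-fold and Il10rb 3.32-fold. Whether the gamma chain family differed from these receptors was not tested.

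The genes whose values over the 6 samples were nearest to those of Il9r, by Euclidean distance between centred log2 values among genes with a mean of at least 100, were Slc7a8 (distance 0.12), Ttc7 (0.131) and Padi2 (0.136). For Il13ra1, the member with the most positive log2 change, they were Atp1b1 (1.34), Cav1 (1.57) and Cldn18 (1.70), a far looser likeness. For Il2ra, chosen after its values were seen, they were Dck (0.0418), Vars (0.0595) and Snd1 (0.0626). The log2 changes of Dck, Vars and Snd1 were −1.58, −1.56 and −1.60, beside −1.57 for Il2ra. Those of Slc7a8, Ttc7 and Padi2 were −2.62, −2.59 and −2.53, beside −2.62 for Il9r. With 2 groups of close replicates, a small distance largely reflects a like size of change.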

How the data were processed

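Per the submitters' processing notes, the tools were cutadapt 4.7 (a read trimmer) and FastQC, and the build was mm10. No source used here names the aligner, the counter, its strand setting or the annotation. RNA was extracted with TRIzol, per the labels' protocols. Although the deposited table carries FPKM in its name, the authors' values are a normalised signal without length scaling: in each column 100% of the values are whole multiples of 1 read within 0.01 reads, for all genes alike. They were taken as reads divided by 1 size factor per sample, 0.7572 to 1.1808. Within groups, every pair of replicates exceeded counting noise, with chi-square values of 3.96 to 7.76 per degree of freedom.

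Log2(value + 1) of the 16223 genes with a mean of at least 1 was fitted in limma 3.58.1 (R 4.3.3) with a mean-variance trend, 3 Control against 3 toyocamycin samples, two-sided, Benjamini-Hochberg over all genes. With this pseudocount, log2 changes of low genes are too small. Folds are ratios of group means. All 8 receptor chains passed the filter. Because whole reads could be recovered, edgeR 4.0.16 (quasi-likelihood) and DESeq2 1.42.0 were run on them as alternatives, beside other pseudocounts, filters and scalings, a replicate block, and leaving out each sample. The edgeR test called 10687 genes with TMM factors, where limma called 10690. Log2 chain ratios, with 1 added to each value, were tested by exact permutation (scipy 1.17.1). The limma procedure was also run on simulated counts in which far fewer genes were changed than were called here. That run therefore cannot judge the calls in data with so many changes.

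The receptor chains and all gene lists were chosen with earlier results of these data known, so no list was tested as a whole. All 160 list entries matched a symbol of the table. Genes named by rule were every receptor chain, related chain and ligand, and Jak1, Jak3, Stat5a, Stat5b and Stat6. The rule also took the 2 most positive and 2 most negative called changes of each other list except the markers. It further took the 3 nearest profiles of the chains with the most negative and most positive change. Outside the rule were cell type markers, genes overlapping a chain, and the 3 nearest profiles of Il2ra. Limits from reads cover counting error only. Coordinates and exon lengths are from GENCODE M21 (GRCm38), promoter windows from RefSeq (GRCm38.p6).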

Additional observations from a re-analysis of the deposited data

How the results depend on the processing

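The calls and directions of Il2ra, Il2rb, Il2rg, Il9r and Il15ra were the same in all alternatives run, but the sizes moved. With all samples kept, the alternatives gave −1.98 to −1.57 for Il2ra, −0.85 to −0.37 for Il2rb and −1.15 to −0.66 for Il2rg. Il9r ran from −2.97 to −2.62 and Il15ra from −1.69 to −0.87. Leaving out 1 sample gave log2 changes of −1.59 to −1.54 for Il2ra, −0.39 to −0.35 for Il2rb, −0.72 to −0.63 for Il2rg, −2.64 to −2.60 for Il9r, −1.41 to −1.26 for Il15ra and 0.21 to 0.27 for Il4ra. Il4ra turned to −0.11 with equal totals and −0.23 with quantile normalization, which left 0 of the 8 chains called higher in both. Il21r was −0.74 and called with equal totals, 0.14 with quantile normalization, and −0.60 to −0.25 without 1 sample. Il13ra1 ran from −0.30 to 1.09 without 1 sample, with −0.15 without Control replicate 2 and −0.30 without toyocamycin replicate 3, and was not tested with a minimum mean of 10. The ratio of Il4ra to Il13ra1 ran from −0.85 to 0.53 without 1 sample. Il9 was −0.09 with equal totals. Called-higher counts of 0 ligands were given by equal totals and by edgeR with TMM factors, and of 0 to 1 by leaving out 1 sample. Signal transducers called higher were 5 with quantile normalization, STAT5-responsive genes 3 with equal totals and with quantile normalization, and other cytokine receptors 7 with equal totals. Equal totals called 4040 genes higher and 6897 lower, in place of 5316 and 5374. The cause of these shifts was not tested. The replicate block called 10570 genes in place of 10690 and changed no call of a chain. Same-numbered samples are known here only to share a number. Their deviations from the group means correlated at −0.041 to 0.023 over all genes tested, beside −0.086 to 0.081 for samples with different numbers. Whether same-numbered samples shared an origin cannot be told from so few pairs. Depth limits Il21r, Il15ra and above all Il13ra1, where 1 read is worth 0.8469 to 1.3206.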
